A study of Mus musculus with 8 samples.

Results

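Mitochondrial ribosomal protein genes were taken as the genes on a mouse Affymetrix array whose probe sets carry a single gene symbol of the form Mrpl or Mrps followed by a number. This gave 76 genes out of 18194 with a single symbol, measured by 156 probe sets, and each gene was represented by its brightest probe set over the 8 arrays. The RNA came from mouse oocytes at the germinal vesicle (GV) stage, before meiosis resumes, in 2 groups of 4 samples. One group was untreated, and the other was cultured for 48 h in milrinone, a phosphodiesterase inhibitor that keeps oocytes from maturing. The study's title concerns how stable transcripts are in fully grown oocytes. The labels leave out strain, age and the number of oocytes per sample. No sample cultured without the drug was analysed here, so drug, culture and elapsed time cannot be told apart. Each array received 15 µg of biotinylated cRNA, so a level is relative to the other RNA of its sample, and less RNA per cell cannot be told apart from fewer cells of a type.

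The mitochondrial ribosome is built in the mitochondrial matrix from rRNAs made there and from proteins that are all encoded in the nucleus. It translates the few proteins encoded by mitochondrial DNA, which are core subunits of the respiratory chain and of ATP synthase. Genes named Mrps encode mainly proteins of the small subunit, which reads the message, and genes named Mrpl those of the large subunit, which joins amino acids. Some descend from proteins of the bacterial ribosome and others arose with mitochondria. Oocytes hold very many mitochondria, which the embryo inherits.

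In the samples cultured in milrinone no mitochondrial ribosomal protein gene was detected to change. Of 74 tested genes 0 passed the limma test at an adjusted p under 0.05, where 0.117% of all 16288 tested probe sets passed, all of them lower in milrinone. At an unadjusted p under 0.05 there were 5 of the 74 genes (6.76%), 4 higher and 1 lower. Over all tested probe sets the share was 9.63%, with 5.62% higher and 4.0% lower. The median log2 difference, milrinone minus untreated on the log2(intensity + 16) scale, was 0.03 for these genes and 0.06 for all tested probe sets. It was -0.0033 after quantile normalization and -0.00027 after centring the arrays on their median, so no direction is given for the family. A probe set is called listed where an array gave it a value, and a gene was tested where this held for 3 or more arrays of both groups. Of the members 73 genes were listed on all 8 arrays. The count of 5 fell to 3 without milrinone 1, to 3 without milrinone 2 and to 2 without milrinone 3, and became 8 with array weights. The share of all tested probe sets moved too, from 9.63% to 6.04%, 6.61%, 6.21% and 12.6% in the same order. The count over all tested probe sets moved from 19 to 69 without untreated 1 and to 9 without milrinone 3, with 0 members called each time.

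The intervals show how large a change could have been missed. The 95% interval of the difference lay within 0.5 of 0 for 53 of the 74 genes (71.6%) and for 40.4% of all tested probe sets. It lay within 1.0 of 0, which is a change of 2-fold on this scale, for 70 of the 74. This was 94.6%, beside 90.4% of all tested probe sets. The difference itself was smaller than 0.25 in either direction for 64 genes, or 86.5%, beside 70.5% of all tested probe sets. The median standard error was 0.14, against 0.17 over all tested probe sets, and the median mean intensity was 1606 against 559. These comparisons favour the members by construction, since the brightest probe set of each gene was taken. With the same rule applied to all genes, 9215 were tested, with a median intensity of 765 and a median standard error of 0.17. Their interval lay within 0.5 of 0 for 43.8% and within 1.0 for 90.2%. The difference was smaller than 0.25 for 71.4% of them. Brightness depends on the probes as well as on the transcript, and the levels of different genes are not compared.

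**Figure D1:**
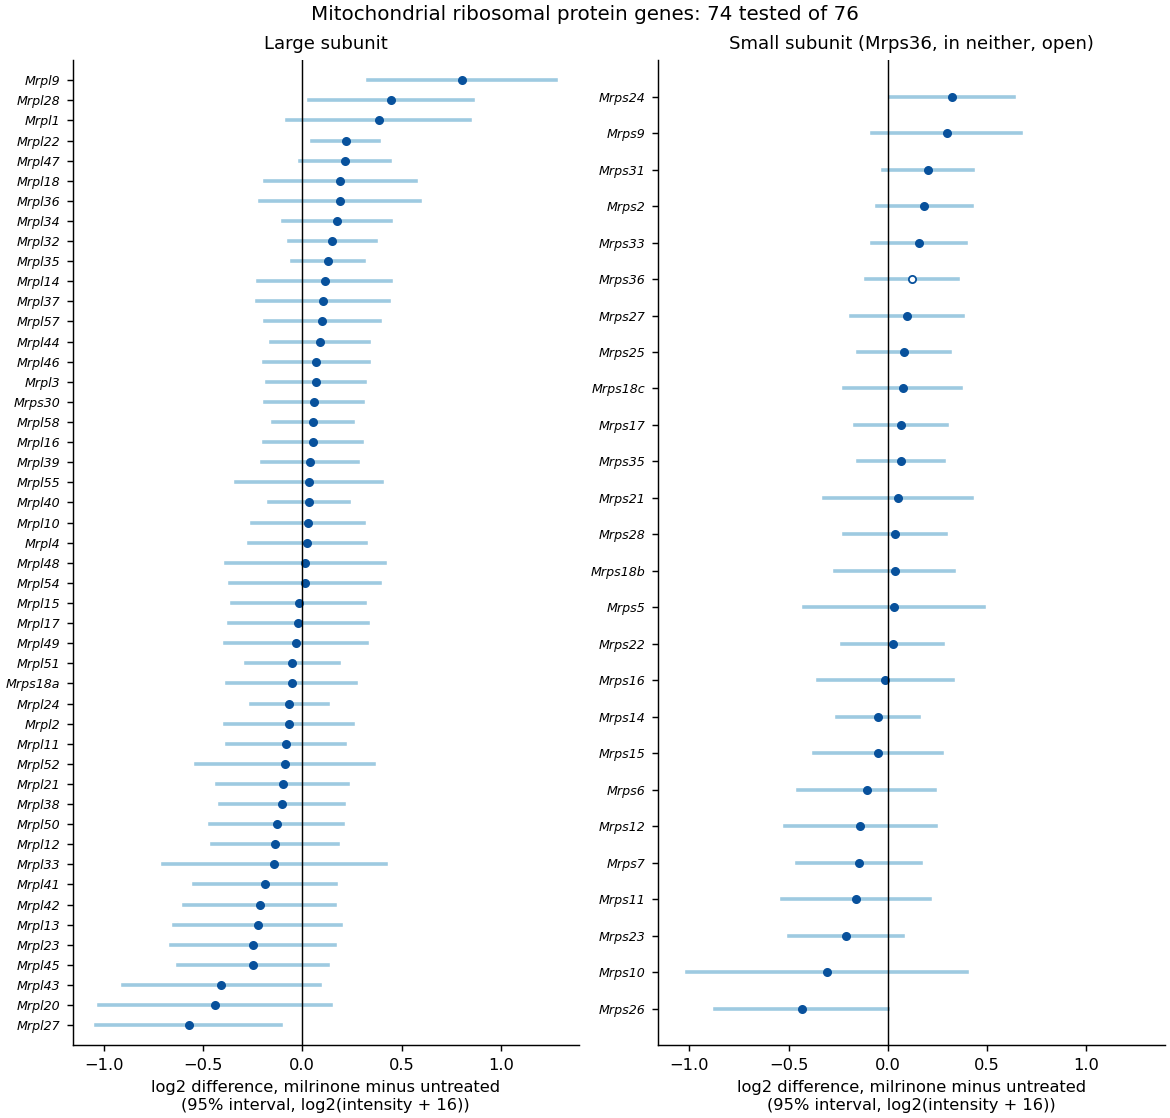
Log2 difference of each tested gene (point) with its 95% interval (line), milrinone minus untreated on the log2(intensity + 16) scale, for the large subunit on the left and the small subunit on the right. Mrps36, counted in neither subunit, is the open point on the right. Most intervals cross 0, and the points run from -0.57 for Mrpl27 to 0.81 for Mrpl9, with 0 of 74 passing after adjustment.

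**Figure D2:**
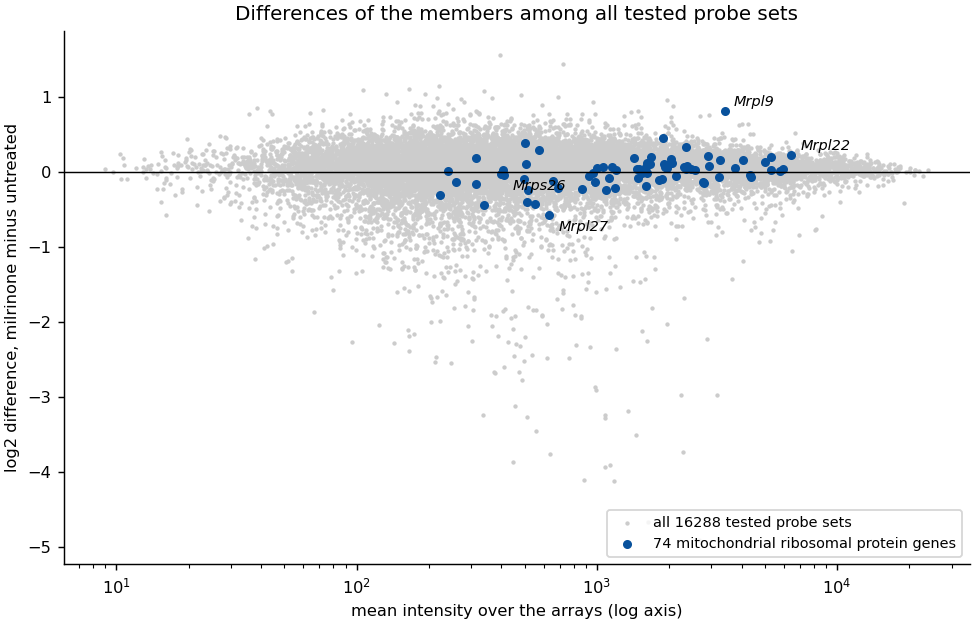
Log2 difference against mean intensity (log axis) for all 16288 tested probe sets in grey and the 74 genes in blue. The blue points lie inside the grey band, and none is among the probe sets that fell by several log2 units.

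All 15 oocyte markers on the array, Gdf9 and Zp3 among them, were listed on all 8 arrays. Many markers of other ovarian cells moved with the groups, but not all. Of 22 granulosa, cumulus and theca markers, between 15 and 19 were listed on an untreated array and between 6 and 11 on a milrinone array, and their summed intensity ran from 17178 to 76744 and from 1433 to 2555. The brightest probe sets of Amhr2, Cyp17a1, Cyp11a1, Star, Nr5a1, Tnfaip6 and Fst were empty on all milrinone arrays and that of Amh on all 8, although another probe set of Cyp11a1 was listed there. Of 15 blood, stromal and endothelial markers, 8 to 13 were listed on an untreated and 4 to 5 on a milrinone array, with summed intensities of 1406 to 15671 and 624 to 784. Among the tested markers Gja1, Foxl2, Hsd17b1 and Grem1 were lower in milrinone without overlap. The groups overlapped for Nr5a2 (-0.62), Cd68 (-0.34), Adgre1 (-0.29), Kdr (-0.15), Kitl (-0.08) and Tek (0.12). Has2 was listed on 2 arrays of each group, and Ptgs2 on 1 untreated and 2 milrinone arrays. The highest sum of both lists was on untreated 1, whose median correlation with the other arrays over all probe sets was 0.930 against 0.966 to 0.980 for the others, and 0.934 against 0.964 to 0.984 over the mitochondrial ribosomal protein genes alone. The 3' to 5' signal ratio of the Actb control was 6.87 to 13.1 among untreated samples, against 11.6 to 20.4 after milrinone. The part of these in any difference below was not tested.

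Mrpl9, a large subunit protein of bacterial descent, had the smallest p of the family. Its intensities were 1610, 3557, 2506 and 2397 in untreated samples 1 to 4, against 3717, 3923, 5397 and 4131 in milrinone samples 1 to 4. All milrinone arrays were above all untreated arrays, with untreated 2 close to milrinone 1. The group levels were 2518 ± 799.8 (SD, n = 4) and 4292 ± 756 (SD, n = 4), and the log2 difference was 0.81 (SE 0.21, 95% interval 0.33 to 1.28, limma adjusted p = 0.402). It was 0.61 without untreated 1 and 0.51 without untreated 1 and 4. A second Mrpl9 probe set differed by 0.76 (limma adjusted p = 0.472) with overlapping groups, 1291 to 3613 against 2924 to 4626. The third, a dim one, differed by 0.24 (limma adjusted p = 0.773). The probe set shown carries the suffix that Affymetrix gives to sets shared by several transcripts.

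Mrpl22, which lines the tunnel through which the new protein leaves the ribosome, was next among the genes that were higher. Its intensities were 5773, 5894, 6122 and 5975 in untreated and 7239, 7352, 6963 and 6173 in milrinone samples. The groups did not overlap, although milrinone 4 lay just above untreated 3. The log2 difference was 0.22 (SE 0.08, limma adjusted p = 0.472). Mrps2, a bacterial-type protein of the small subunit, had 1216, 1365, 1393 and 1366 in untreated and 1571, 1550, 1535 and 1415 in milrinone samples. It was also higher on every milrinone array, by 0.18 (limma adjusted p = 0.569).

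Mrpl27, whose bacterial relative reaches toward the site of peptide bond formation, had the largest negative difference. It had 1062, 694, 668 and 624 in untreated and 502, 665, 393 and 458 in milrinone samples. Untreated 1 was the highest, and milrinone 2 lay within the untreated range. The difference was -0.57 (SE 0.21, limma adjusted p = 0.480), and -0.41 without untreated 1. Mrps26, a protein of the small subunit without a bacterial relative, had 717, 857, 499 and 493 in untreated and 446, 470, 408 and 512 in milrinone samples. Its high values were those of untreated 1 and 2, and the groups overlapped. The difference was -0.43 (limma adjusted p = 0.514), and -0.29 without untreated 2.

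Mrps23, another small subunit protein that arose with mitochondria, was the only tested gene of the family that was lower on every milrinone array. It had 772, 738, 711 and 742 in untreated and 683, 609, 568 and 700.1 in milrinone samples, a difference of -0.21 (limma adjusted p = 0.575). The other tested probe sets of Mrps23 differed by -0.31 and -0.06, and both had overlapping groups. In all, 3 genes of the 74 were higher and 1 was lower without overlap of the groups. Over all tested probe sets the shares were 5.06% higher and 2.74% lower, 7.8% in all. The other genes with an unadjusted p under 0.05, named after their values were seen, were Mrpl28 at 0.45 and Mrps24 at 0.32. Mrpl28 had 1237 to 2046 in untreated and 1720 to 2693 in milrinone samples, and Mrps24 had 1638 to 2360 and 2220 to 2998, so both overlapped. The other tested probe set differed by 0.26 for Mrpl28 (limma adjusted p = 0.656) and by 0.18 for Mrps24 (limma adjusted p = 0.598).

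**Figure D3:**
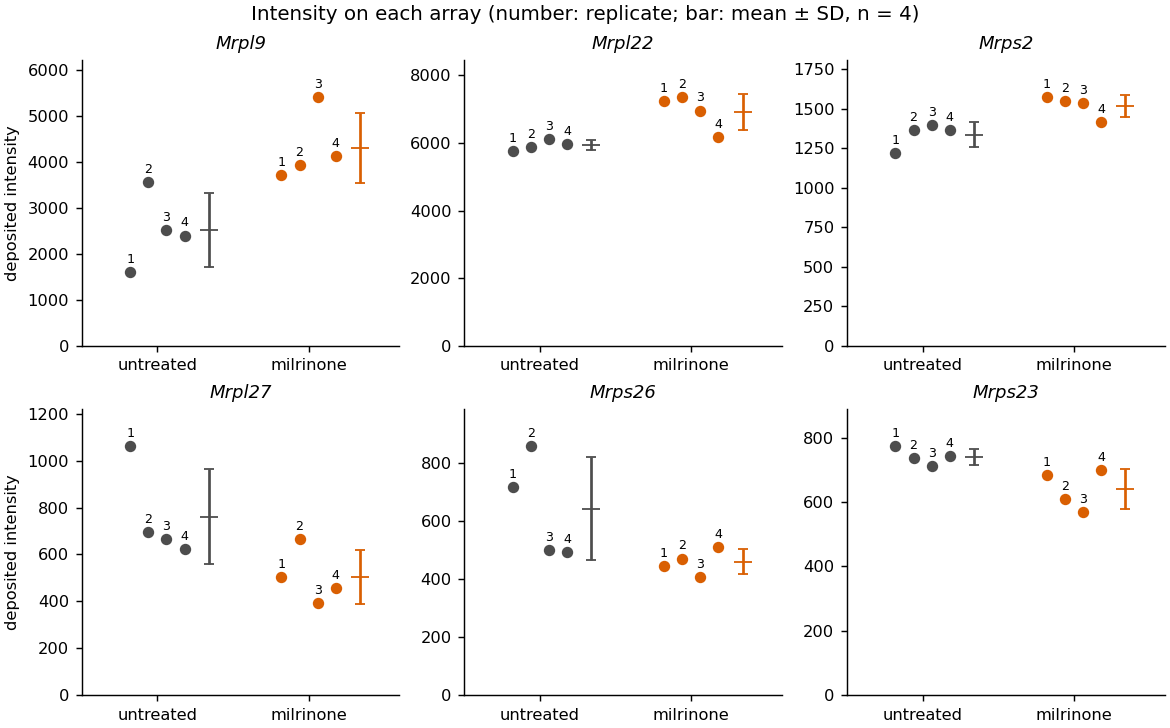
Deposited intensity of 6 genes on each array (points numbered by replicate, untreated in grey, milrinone in orange) with mean ± SD beside them, n = 4. Mrpl9, Mrpl22 and Mrps2 are higher on every milrinone array and Mrps23 is lower on every one, whereas the groups of Mrpl27 and Mrps26 overlap.

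The promoters of these genes show what the family shares outside the arrays. RefSeq windows of 300 bases on mouse build GRCm38.p6, running from 250 bases before the start of the transcript, were found for 67 of the 76 genes, 73 windows in all. They were searched on both strands for the core sequences of factors that drive nuclear genes for mitochondrial proteins. These were ccggaag of the ETS family, to which the factor GABP belongs, aagatggcg of YY1, and the palindrome of NRF1, spelled in capitals in the Mrpl9 stretch. None of these contains another. The stretches below are the last 100 bases before the start, 5′ to 3′ on the strand of the gene, for 4 of the genes described above and for Mrps22 and Mrpl36, with a motif match in capitals. They are shown because each kind of core is seen among them.
Mrpl9: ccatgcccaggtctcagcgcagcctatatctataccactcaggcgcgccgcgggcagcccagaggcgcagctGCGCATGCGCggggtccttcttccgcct
Mrpl22: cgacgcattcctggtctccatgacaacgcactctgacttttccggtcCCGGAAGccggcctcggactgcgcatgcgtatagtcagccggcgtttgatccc
Mrpl27: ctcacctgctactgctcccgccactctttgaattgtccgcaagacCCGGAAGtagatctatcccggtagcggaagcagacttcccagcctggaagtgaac
Mrps26: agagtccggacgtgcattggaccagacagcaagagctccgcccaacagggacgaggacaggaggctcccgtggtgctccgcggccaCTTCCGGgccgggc
Mrps22: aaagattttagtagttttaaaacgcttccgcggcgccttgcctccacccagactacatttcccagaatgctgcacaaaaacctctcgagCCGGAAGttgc
Mrpl36: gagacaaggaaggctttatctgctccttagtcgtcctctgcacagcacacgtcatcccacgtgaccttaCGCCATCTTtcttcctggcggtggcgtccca
The capitals mark the NRF1 core in Mrpl9, the ETS core in Mrpl22, Mrpl27 and Mrps22, the ETS core on the opposite strand in Mrps26, and the YY1 core on the opposite strand in Mrpl36. The stretches lie at chr3:94443236-94443335 on the plus strand for Mrpl9, chr11:58171564-58171663 plus for Mrpl22 and chr11:94653691-94653790 plus for Mrpl27. Those of the others are chr2:130563657-130563756 plus for Mrps26, chr9:98601680-98601779 minus for Mrps22 and chr13:73330909-73331008 plus for Mrpl36.

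The ETS core was found in 25 of the 73 windows (34.2%), beside 11.6% of 21263 windows of protein-coding genes and 8.86% of all 32851 windows. The YY1 core was found in 8 (11%), beside 1.83% and 1.40%, and the NRF1 core in 3 (4.11%), beside 1.33% and 0.971%. At least 1 of the 3 was found in 34 windows (46.6%), beside 14.1% and 10.8%. The windows also differed in composition, with a median of 21 CG dinucleotides against 13 in protein-coding genes and 7 in all windows. A match is a description of letters and not of a bound factor. The difference between milrinone and untreated had a median of 0.01 over the 25 genes with the ETS core and of 0.04 over the 42 with a window and no such core. For the YY1 core it was 0.10 over 8 genes with it and 0.03 over 59 without. For the NRF1 core it was 0.15 over 3 genes with it, Mrpl9 among them, and 0.03 over 64 without. These splits were not tested.

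Many of the genes start back to back with another gene. In 24 of the 73 windows (32.9%), belonging to 22 genes, a transcript of another gene began on the opposite strand within 500 bases upstream, beside 10.6% of windows of protein-coding genes. Mrpl46 and Mrps11 share such a region with each other, with starts 42 bases apart. Mrpl27 faces Eme1 at 48 bases and Mrpl43 faces Twnk, the mitochondrial DNA helicase gene, at 116. Mrps12 faces Sars2, which encodes the mitochondrial seryl-tRNA synthetase, at 147 bases. In these pairs the log2 differences were 0.07 for Mrpl46 and -0.16 for Mrps11, -0.57 for Mrpl27 and -0.07 for Eme1, -0.41 for Mrpl43 and -0.07 for Twnk, and -0.14 for Mrps12 and 0.27 for Sars2. None passed the limma test, with adjusted p from 0.480 to 0.881.

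**Figure D4:**
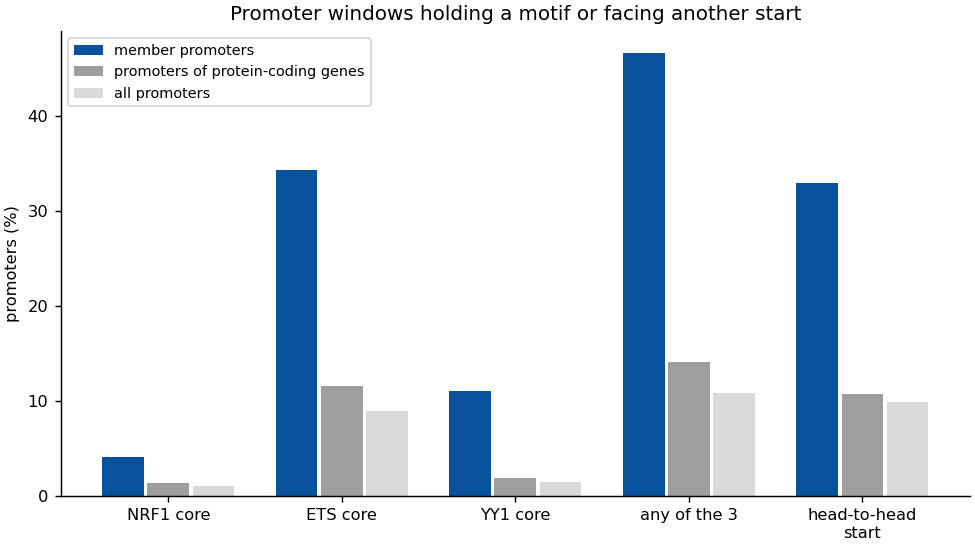
Percent of promoter windows that hold each motif core, any of the 3, or a start of another gene on the opposite strand within 500 bases upstream, for the family (blue), all protein-coding genes (grey) and all windows (light grey). The family's bars are the highest in every category, with 34.2% against 11.6% of protein-coding windows for the ETS core.

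Both subunits had medians near 0. Of all 16288 tested probe sets 10099 were above 0 and 6189 below. Of the 48 tested large subunit genes 26 were above 0 and 22 below, with a median of 0.02. Of the 25 small subunit genes 15 were above and 10 below, with a median of 0.03. After quantile normalization the medians were -0.0060 and 0.0013, with 21 and 13 genes above 0, and without untreated 1 that of the small subunit was -0.01. Mrps18a and Mrps30, whose products sit in the large subunit in spite of their names, were counted there. Taking the numbers of the names as a guide, the 40 bacterial-type genes had a median of 0.01 and the 33 others one of 0.03. With Mrps24 and Mrpl47, whose products also have bacterial relatives, moved to the first class, that class had 42 genes with a median of 0.03 and all 5 genes with an unadjusted p under 0.05. This is 11.9% of the class, beside 9.63% of all tested probe sets, and Mrps24 is itself among the 5. The remaining 31 had 0 of them and a median of 0.03, and others among the 31 may have bacterial relatives too. The difference between the classes was not tested.

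Further members were described for their roles. Mrps12, at the decoding site, had 1296, 1179, 761 and 921 in untreated and 885 to 963 after milrinone. The difference was -0.14, with a 95% interval of -0.52 to 0.24. It was -0.02 without untreated 1, -0.07 without untreated 2 and -0.28 without untreated 3. The stalk that recruits translation factors is made by Mrpl12 on its anchor Mrpl10, next to Mrpl11. Mrpl12 had 2411, 2883, 2515 and 3850 in untreated and 2530.6 to 2712 in milrinone samples, so untreated 4 and, less far, untreated 2 stood above, and the difference of -0.14 became 0.0027 without untreated 4. Mrpl10 differed by 0.03 (-0.26 to 0.31) and Mrpl11 by -0.08 (-0.38 to 0.22). The other tested probe sets of Mrpl11 lay on the other side of 0, at 0.16 and 0.10. Mrpl44, which has the fold of an RNA-cutting enzyme, differed by 0.09 (-0.16 to 0.34). Mrps27, a protein of the pentatricopeptide repeat family that binds RNA, differed by 0.10 (-0.18 to 0.38), and by 0.00077 without untreated 1.

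The related genes Mrps18a, Mrps18b and Mrps18c encode proteins that occupy different places in the ribosome. They had 953 ± 155, 2305 ± 209.5 and 2314 ± 415 in untreated and 911 ± 51.2, 2379 ± 406 and 2414 ± 168 in milrinone samples (SD, n = 4). Their differences of -0.05, 0.03 and 0.07 had intervals that span 0, the widest from -0.38 to 0.27 for Mrps18a. Mrps30 had 1126 ± 36.6 and 1176 ± 66.4 (SD, n = 4), a difference of 0.06 (-0.19 to 0.31). Mrps36, whose product is now known as a part of the 2-oxoglutarate dehydrogenase complex, is counted in neither subunit and differed by 0.12 (-0.11 to 0.35).

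The brightest probe sets of the family after Mrpl22 were those of Mrpl39, Mrpl48 and Mrps22, all outside the bacterial-type class by the numbers of their names. Mrpl39 had 5150 to 6703 in untreated and 5525 to 6720.0 in milrinone samples. Mrpl48 had 4023, 5275, 5738 and 8224 in untreated and 5370 to 6512 in milrinone, so untreated 1 was below and untreated 4 above all milrinone values. Mrps22 had the same 2 extremes, with 4405 on untreated 1 and 6534 on untreated 4, and 5128 to 5740 in milrinone. The differences were 0.04, 0.01 and 0.02, and that of Mrpl48 was -0.15 without untreated 1 and 0.20 without untreated 4.

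Untreated 1 set the extremes for many genes, in opposite directions at the ends of the brightness range. Of the 73 genes listed on all arrays, 19 were highest on untreated 1 (26%, beside 15.9% of all such probe sets) and 21 were lowest there (28.8%, beside 39.6%). The tested genes were split by brightness into a dim, a middle and a bright set of 25, 24 and 25 genes. Of the 19 highest, 12 were in the dim and 2 in the bright set, and of the 21 lowest, 2 were in the dim and 12 in the bright set. Untreated 4 held the highest value for 18 genes (24.7%, beside 17.2%), Mrpl48, Mrps22, Mrpl2, Mrps7 and Mrpl12 among them. It held the lowest value for 11 (15.1%, beside 22.3%). In the dim set 17 of 25 genes were below 0, beside 2609 of 6556 tested probe sets of that range. The median of the dim set was -0.10 beside 0.07 for that range. It was -0.12 after quantile normalization and -0.13 after centring, with 17 and 19 genes below 0. Without untreated 1 it was -0.04, with array weights -0.0011 and without untreated 1 and 4 it was 0.04. In the bright set 19 of 25 were above 0, beside 1721 of 2516 tested probe sets of that range. The median of the bright set was 0.05 beside 0.07, and 0.03 after either rescaling, with 15 (quantile) and 16 (centred) of 25 above 0. Without untreated 4 it was 0.11 beside 0.07, with 20 of 25 above 0.

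**Figure D5:**
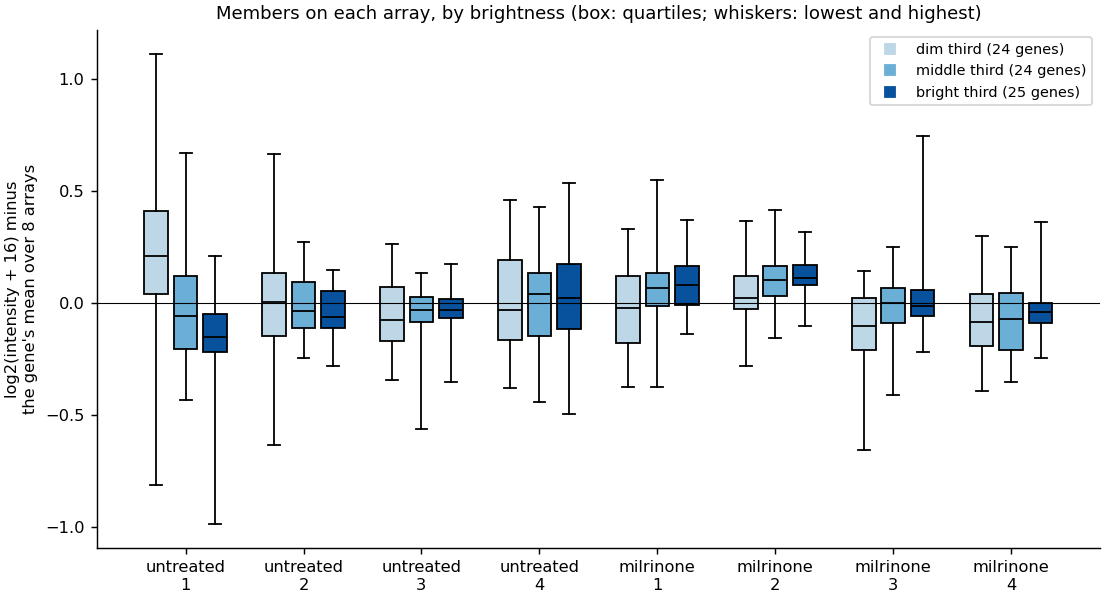
Log2(intensity + 16) of the 73 genes listed on all arrays minus each gene's mean over the 8 arrays, by array and by set of brightness (24, 24 and 25 genes; box: quartiles and median, whiskers: lowest and highest). The dim set is high on untreated 1, with a median of 0.21, where the bright set is low at -0.15.

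Mrps34 and Mrpl19 were not tested. The probe set of Mrps34, a small subunit protein, was listed at 1331, 223, 151 and 185 in untreated samples. It had no value in any milrinone sample, a pattern shared by 0.471% of 45037 probe sets. Untreated 1 was far above the other 3. The summed intensities of the granulosa, cumulus and theca markers on untreated 1 to 4 were 76744, 17178, 19710 and 20374. A link of these sums to the Mrps34 values was not tested. An empty cell sets no upper limit, so no fold is given. A second probe set that the annotation assigns to both Nme3 and Mrps34 had 951 to 1120 in untreated and 798 to 1245.5 in milrinone samples, a difference of -0.13 (limma adjusted p = 0.785). Mrpl19, a large subunit protein, had 4 probe sets, and its brightest was listed only on untreated 1, at 80.7. Mrpl30 and Mrpl53 were left out of the 76 because each shares its probe sets with another gene.

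Probe sets of the same gene gave a measure of the error between probes. Of 42 genes with several probe sets, 24 had more than 1 tested. In 16 of the 24 all tested probe sets lay on the same side of 0 and in 8 they lay on both sides, with a median range of 0.18 within a gene. Mrpl44 had 4 tested probe sets with differences from -0.19 to 0.09. A dim probe set of Mrpl57 was listed on all untreated arrays at 32.6 to 55.9 and was empty in milrinone, whereas its bright one differed by 0.10. A dim probe set of Mrpl58, which encodes a peptide release protein, was listed only on 3 milrinone arrays at 25.9 to 42.1, as 0.191% of probe sets were on at least 3, and its bright one differed by 0.05. Across the 156 probe sets 17 were empty on every array.

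Other genes of mitochondrial gene expression were also not called. For mitoribosomal proteins with other names 4 genes were tested, with a median of 0.14, and Dap3 and Ptcd3, both of the small subunit, differed by 0.14 and 0.17. Of 15 translation factor genes 0 passed (limma), and the median was 0.08. With an unadjusted p under 0.05, 1 was higher and 1 lower (13.3% in all, beside 9.63% of all tested probe sets). These were the release factor gene Mtrf1l, at 323 to 422 and 439 to 552 (difference 0.36, limma adjusted p from 0.259 to 0.780 over the alternatives), and the elongation factor gene Tsfm, at 480 to 680.1 and 340.2 to 511 (difference -0.42). Mtrf1l was higher on every milrinone array, and the groups of Tsfm overlapped. Mtif3, named after its values were seen, was also higher on every milrinone array, by 0.19 (limma adjusted p = 0.575). These were the 2 of the 15 genes without overlap, beside 7.8% of all tested probe sets. Tufm, whose product is recycled by that of Tsfm, differed by -0.37 with milrinone 3 empty, and Lrpprc, which stabilises mitochondrial messages, by 0.07.

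Of 18 tested genes for ribosome assembly and rRNA modification 0 passed (limma), and the median was 0.06. With an unadjusted p under 0.05, 2 were higher (11.1%, beside 9.63% of all tested probe sets). Fastkd2, which binds the large rRNA in the mitochondrion, had 501, 515, 564 and 643 in untreated and 763, 743, 786 and 689 in milrinone samples. Its groups did not overlap, as for 1 of the 18 genes in all, beside 7.8% of all tested probe sets. The difference was 0.42 (SE 0.14). Tfb1m, the methyltransferase of the small rRNA, had 1895 to 2614 and 2479 to 2848, a difference of 0.31. For mitochondrial transcription and genome maintenance 17 genes were tested with limma. The adjusted and the unadjusted test each gave 0 of them, and their median difference was 0.08. Without overlap of the groups was 1 of the 17, Mgme1, named after its values were seen and higher by 0.30 (limma adjusted p = 0.522). Polrmt, the mitochondrial RNA polymerase, differed by 0.19, Tfam, which packages mitochondrial DNA, by 0.13, the protease gene Lonp1 by -0.20 and the coactivator gene Ppargc1b by 0.34.

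The cytosolic ribosomal protein genes, the nearest counterpart of the family, had 44 tested genes. None passed (limma). At an unadjusted p under 0.05, 10 were lower and 1 higher (25%, beside 9.63% of all tested probe sets). Below 0 were 39 of 44, beside 6189 of all 16288 tested probe sets. Their median was -0.18. It was -0.19 after quantile normalization, -0.21 after centring, -0.10 with array weights, -0.07 without untreated 1 and 4 and -0.03 without untreated 1. The mitochondrial ribosomal protein genes, with 42 above and 32 below 0, had a median of 0.03. In the same order of settings it was -0.0033, -0.00027, 0.02, 0.04 and 0.01. The difference between the families was not tested.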

How the data were processed

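Each deposited value is a probe set's intensity on a linear scale, made by the authors from the scanned arrays, with cells left empty by a rule not given in the sources used here, like the software and scaling. Gene names come from the platform annotation. The members and gene lists were chosen with earlier results of these data known. Nothing says that replicates came from separate animals, so p-values reflect only how these samples vary, possibly for technical reasons, and the number of arrays limits the precision. Probe sets with values on 3 or more arrays of both groups (controls left out) were analysed as log2(intensity + 16), which understates changes of dim probe sets, with the deposited scaling kept and empty cells left out. The test was two-sided, by lmFit and eBayes (trend on) of limma 3.58.1 under R 4.3.3, with Benjamini-Hochberg adjustment over all 16288 probe sets. It was checked on simulated data. Genes were named by a rule: up to 6 in each direction without overlap, filled up to 3 by p, the 4 brightest, members with a special role, those listed in mainly 1 group, and partner genes. Promoters are RefSeq's. Plots were made with matplotlib 3.10.9 under Python 3.11.15. The alternatives were other pseudocounts, listing filters, scalings, eBayes without a trend, array weights, a replicate block and leaving out arrays.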

Additional observations from a re-analysis of the deposited data

Results flagged for a closer look

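In 66 groups of 4 arrays, for the named genes and the median of the family, 6 held 1 array far from the other 3. Chance gives about 1 in 20, or 3.3. The ratio of the gap to the range of the group is given for each. Untreated 1 was lowest for Mrps2 (0.851) and for Mrps27 (0.834). Untreated 3 was highest for Mrps30 (0.833). Milrinone 2 was highest for Mrpl48 (0.842) and for Mrps22 (0.878), and milrinone 1 was highest for Lonp1 (0.885).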

How the results depend on the processing

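The count of called members was 0 under all 18 refits, including array weights, the replicate block and each array left out, and the smallest adjusted p of any member was 0.101, for Mrpl9 with array weights (limma). The count of called probe sets over the whole array was 19, and it was 12 with listing on all 8 arrays, 106 with array weights, 85 without untreated 1 and 4 (chosen after seeing the data), and 9 to 69 with 1 array left out. Members with an unadjusted p under 0.05 were 8 with array weights and 2 to 7 with 1 array left out. The share over all tested probe sets was 12.6% with array weights and 6.04% to 12.8% with 1 array left out. The median of the members ran from -0.016 to 0.051 with 1 array left out. With the replicate block 13 probe sets and 0 members were called. An unadjusted p under 0.05 was held by 5 members, beside 8.03% of all tested probe sets. Replicate numbers are not stated to pair the samples, and the deviations of arrays with the same number correlated at 0.033, -0.199, -0.024 and -0.266, with none best matched to its own number. No named gene crossed the threshold, and 20 of 32 kept their direction throughout. The sign turned under at least 1 alternative for 12. With quantile normalization this gave -0.0083 for Mrpl48, -0.0030 for Mrpl10 and -0.0087 for Mrps18b. Centring gave -0.015 for Mrpl48, -0.0055 for Mrps22 and -0.00050 for Mrpl10. Array weights gave -0.021 for Mrpl48, 0.019 for Mrps12, 0.0077 for Mrps18a, -0.0035 for Mrps18b and -0.21 for Lrpprc. Leaving out untreated 1 and 4 gave 0.043 for Mrpl11, -0.0013 for Mrpl10, 0.088 for Mrps18a, -0.076 for Tfam and -0.21 for Lrpprc. With 1 array left out the ranges were -0.020 to 0.11 for Mrpl39, -0.15 to 0.20 for Mrpl48, -0.058 to 0.13 for Mrps22, -0.027 to 0.079 for Mrpl10, -0.22 to 0.0027 for Mrpl12, -0.16 to 0.031 for Mrps18a, -0.065 to 0.12 for Mrps18b, -0.0072 to 0.19 for Mrps18c and -0.053 to 0.18 for Lrpprc. The cause of these turns was not tested.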
